A study of Drosophila melanogaster with 12 samples.

Results

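The Dpr and DIP genes encode neuronal cell-surface proteins of the immunoglobulin superfamily, and their transcripts were followed here in fly testes with and without su(Hw). They were taken as every gene whose single current symbol for a probe set is dpr followed by a digit or begins with DIP-. The rule gave 30 genes, 20 Dpr and 10 DIP, measured by 53 of the 18769 probe sets tested (37 Dpr and 16 DIP). The array held 11982 genes with a symbol of their own in all. RefSeq lists 32 genes under the rule, and dpr21 and DIP-lambda were not analysed here. A further probe set, annotated to both DIP-epsilon and scu, was left out. Of the 30 genes 9 lie on 2L, 3 on 2R, 4 on 3L, 8 on 3R, 5 on X and 1 on chromosome 4.

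A Dpr protein on one neuron binds a DIP protein on another, each Dpr recognising a small number of DIPs and the reverse. The pairs are known for matching synaptic partners in the visual system, at the neuromuscular junction and in the mushroom body. The family takes its name from dpr1, which is needed for the normal response to salt in tests of proboscis extension. Su(Hw) binds DNA through zinc fingers, acts at the gypsy insulator, and is known to repress neuronal genes in the female germline.

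RNA of testes from 3-day-old males was measured on 12 Affymetrix arrays, 3 for each of 4 genotypes, each from about 100 pairs of testes. The nulls were A2663/2, with alleles su(Hw)[A2663] and su(Hw)[2] over each other, and 2/v, with su(Hw)[2] over su(Hw)[v]. The wild types for su(Hw) were BL15598 and Canton S, a common laboratory stock. A2663/2 and BL15598 both carry the insertion P{EPgy2} in Amt (Amt[EY02782]). Both nulls thus share su(Hw)[2]. The alleles y[1] and w[67c23] are in every genotype but Canton S, and ct[6] and f[1] are in 2/v alone. No wild type carries these last alleles, so in 2/v the effect of su(Hw) and that of the stock cannot be told apart. Testes hold germline, cyst and sheath cells, and in such mixed samples fewer cells of a type and less RNA per cell cannot be told apart.

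The probe set of su(Hw) itself read 64, 56.7 and 89.6 in A2663/2 and 38.7, 19.2 and 70 in 2/v, against 1410, 1544 and 1223 in BL15598 and 864, 885 and 1205 in Canton S. As for the testis label, all 8 germline genes listed (vas, bam, aly, can, dj, Mst87F, betaTub85D and bol) were above the median signal of the 183 control probe sets on every array. That median, 20.4 signal units, is called the control level below and serves as the mark for a dim signal. Array medians ran from 190 to 242 signal units. Of the 53 Dpr and DIP probe sets, 22 were above the control level on all arrays (41.5%, against 68.4% of all probe sets), 30 on 1 to 11 arrays and 1, of dpr16, on none. These 22 belong to 21 genes, and 9 genes had no probe set above the control level on all 12 arrays. The median SD between replicates was 0.32 log2 units in the 22 and 1.19 in the other 31, so the spread was wider among the dim probe sets.

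Su(Hw) null against wild type, 7 of 53 probe sets were called at an adjusted p under 0.05 by limma, a linear model on log2 signals with Benjamini-Hochberg adjustment over all probe sets. DIP-beta, dpr15, dpr19, dpr8 and dpr10 rose, DIP-delta and dpr7 fell, and 46 probe sets did not pass. The share of 13.2% lies near the 13.5% of all probe sets called in the same comparison (8.87% higher and 4.6% lower), so this count is no result about the family. The median log2 change was 0.04 over the 53 probe sets and 0.05 over all probe sets. At an unadjusted p under 0.05 limma gave 13, of which 9 were higher and 4 lower, beside 26% of all probe sets (16.4% higher and 9.61% lower).

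**Figure D1:**
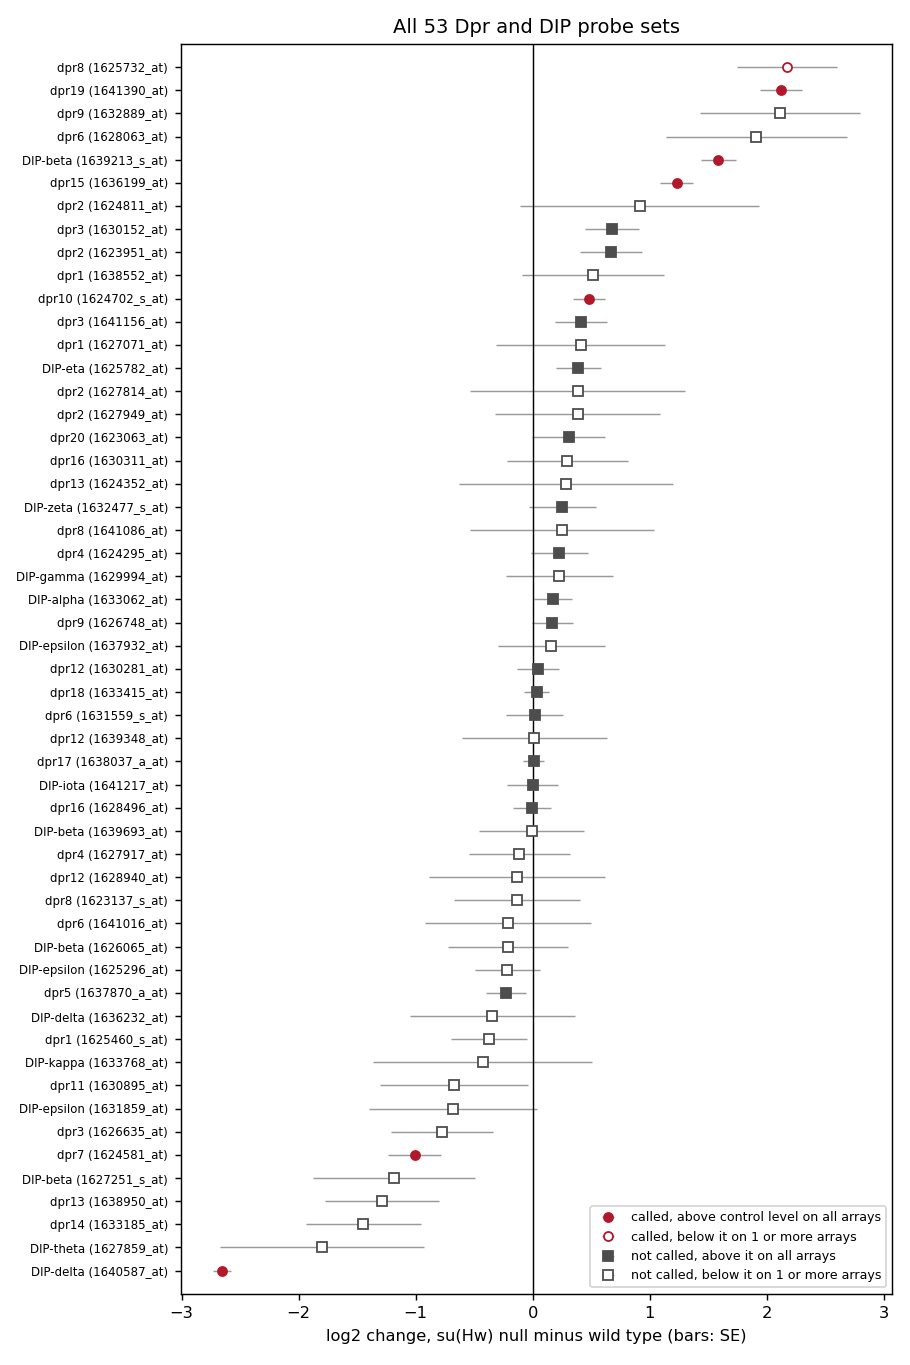
Log2 change null minus wild type (mean of A2663/2 and 2/v minus mean of BL15598 and Canton S) with its SE for all 53 Dpr and DIP probe sets, one row each. Red circles are the 7 called probe sets, grey squares the 46 others, and open symbols mark probe sets below the control level of 20.4 on 1 or more arrays, whose SEs are mostly wide.

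Each null can be set against each wild type, which makes 4 pairs. Called the same way in all of them were 3 probe sets, those of DIP-beta, dpr15 and dpr19, all higher. This is 5.66% of the 53, against 2.05% of all probe sets, of which 1.52% were higher and 0.527% lower. The 4 pairs share arrays and are not independent of each other. These 3 also made up all the calls of A2663/2 against BL15598, the pair with a shared background, where 6.83% of all probe sets were called, 4.36% higher and 2.46% lower. In 2/v against Canton S 5 were called, beside 10.4% of all probe sets (6.84% higher and 3.59% lower), namely DIP-beta, dpr15, dpr19 and dpr8 higher and DIP-delta lower. A2663/2 against Canton S gave 6 calls, beside 9.21% of all probe sets (6.36% higher and 2.85% lower), with DIP-beta, dpr15, dpr19, dpr3 and dpr8 higher and dpr13 lower. 2/v against BL15598 gave 5, beside 10.6% of all probe sets (6.25% higher and 4.38% lower), with DIP-beta, dpr15, dpr19 and dpr10 higher and DIP-delta lower.

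Among the DIP receptors, DIP-beta is known to bind several Dprs, Dpr8 and Dpr15 among them. Its probe set 1639213_s_at read 2280, 1688 and 1778 in A2663/2 and 1512, 1569 and 1429 in 2/v, against 601, 553 and 361 in BL15598 and 541, 725 and 671 in Canton S. Every null array was above every wild-type array. The gene lies on X, and the suffix of the probe set marks probes that match more than one transcript. Whether all the transcripts matched are of DIP-beta was not tested.

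DIP-beta rose 3-fold null against wild type (log2 1.59, SE 0.147, limma adjusted p = 0.000106, higher in 6 of 6 null arrays). The rise was 3.85-fold in A2663/2 against BL15598 (log2 1.95, SE 0.208, limma adjusted p = 0.000493) and 2.34-fold in 2/v against Canton S (log2 1.23, SE 0.208, limma adjusted p = 0.00478). The difference of these 2 effects did not pass (log2 0.72, limma adjusted p = 0.266). The other 3 probe sets of DIP-beta did not show it. Probe set 1626065_at read 48.7, 15.3 and 28.1 in A2663/2 and 13.7, 4.14 and 7.81 in 2/v, against 45.6, 30.1 and 10.1 in BL15598 and 20.2, 5.45 and 14.9 in Canton S. Probe set 1627251_s_at read 8.03, 21.6 and 17.2 in A2663/2 and 3, 35.4 and 4 in 2/v, against 31.1, 22.1 and 67.7 in BL15598 and 41, 6.86 and 13.3 in Canton S. Probe set 1639693_at read 26.8, 53.1 and 47 in A2663/2 and 79.6, 11 and 40.8 in 2/v, against 48.1, 31 and 28.8 in BL15598 and 36.2, 57.5 and 27.9 in Canton S. In all 3 the groups overlapped and 1 or more arrays lay below the control level, and none was called. CG10918, which overlaps DIP-beta, and the nearest measured genes on either side (whe, mst, Ir20a and Cyp6t1) were not called null against wild type either.

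DIP-delta, known as the partner of Dpr12 in the mushroom body, set 2/v apart from the other 3 genotypes. Its probe set 1640587_at read 252, 208 and 226 in 2/v and 6806, 7490 and 6708 in A2663/2, against 8217, 9234 and 7908 in BL15598 and 7639, 7594 and 7232 in Canton S. The 3 arrays of 2/v were below all others, while the A2663/2 arrays overlapped those of Canton S and lay below the 3 of BL15598.

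DIP-delta fell 32.8-fold in 2/v against Canton S (log2 -5.04, SE 0.11, limma adjusted p = 4.1e-08), and 30.7-fold in 2/v against A2663/2, the other null (log2 -4.94, limma adjusted p = 4.94e-08). Of all probe sets, 0.927% were called between the 2 nulls (0.352% higher and 0.575% lower in 2/v), and DIP-delta was the single call among the 53. In A2663/2 against BL15598 the log2 change was -0.27 (95% interval -0.52 to -0.02, limma adjusted p = 0.208). The difference of the 2 null effects was 4.77 log2 units (SE 0.155, limma adjusted p = 1.76e-06), and it was the only one of the 53 called, against 4.07% of all probe sets (1.9% positive and 2.16% negative). The call null against wild type (log2 -2.65, limma adjusted p = 3.22e-07) therefore rests on 2/v alone, and it was lost when limma was given just 2 groups of 6 arrays (adjusted p = 0.16).

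The other probe set of DIP-delta, 1636232_at, disagreed with the first. It read 41.1, 13 and 6.5 in 2/v and 1.75, 6.85 and 5.02 in A2663/2, against 5.39, 4.93 and 40.2 in BL15598 and 19.3, 9.96 and 4.33 in Canton S, with 10 of 12 arrays below the control level, where a fall would be hard to see. The part of the gene that each probe set covers was not analysed here. No other gene of the RefSeq annotation overlaps DIP-delta. Its measured neighbours, chosen after these values were seen, were not called in 2/v against Canton S. The log2 changes were -0.24 for Pfdn4, 0.73 for Ir64a, -1.05 for CG4835 and -0.07 for blanks. For dpr12, the partner gene, the probe set above the control level on all arrays (1630281_at) had means of 89.9 ± 16.9 in A2663/2, 113 ± 20.9 in 2/v, 87.4 ± 28.4 in BL15598 and 112 ± 21.2 in Canton S (SD, n = 3), with a log2 change of 0.04 null against wild type (95% interval -0.36 to 0.44).

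**Figure D2:**
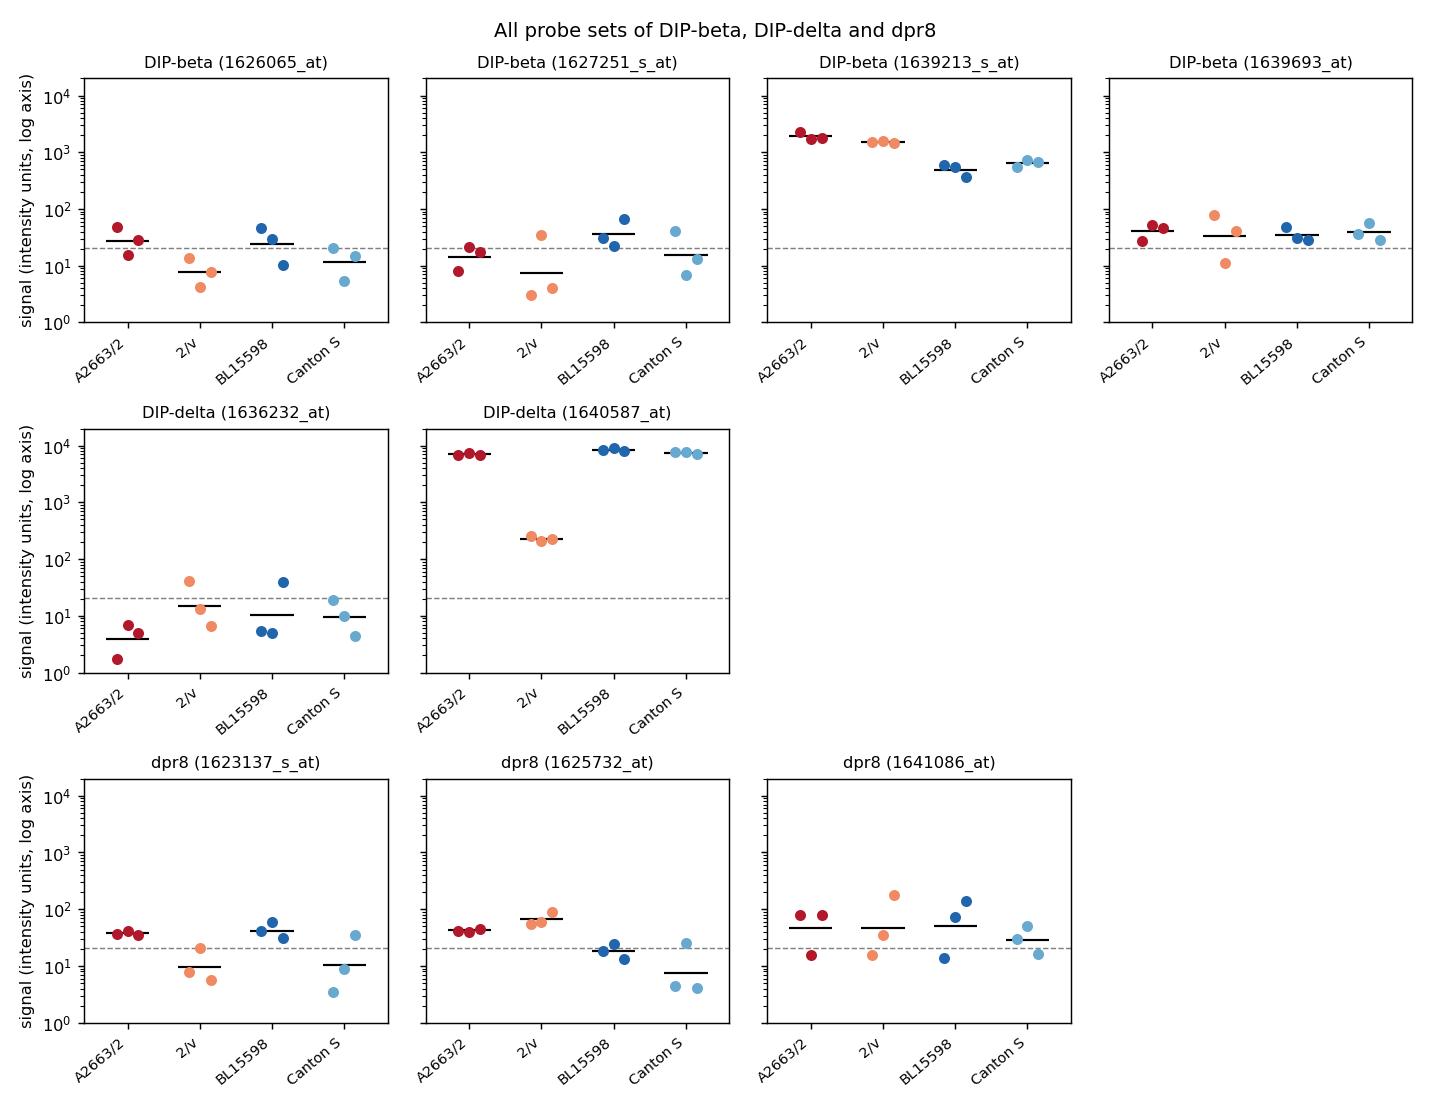
Signal on each array (log axis) for all probe sets of DIP-beta, DIP-delta and dpr8, with A2663/2 and 2/v left of BL15598 and Canton S, points for arrays, bars for geometric means of 3 and a dashed line for the control level of 20.4. One probe set of each gene carries the difference, and the others lie around the dashed line. For dpr8 the called probe set (1625732_at, geometric mean 24.9) lies near that line too, and the uncalled 1641086_at is brighter (42.1).

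None of the other 8 DIP genes was called null against wild type. DIP-alpha, which binds Dpr6 and Dpr10, averaged 221 ± 60.3 in A2663/2, 233 ± 39.2 in 2/v, 237 ± 7.88 in BL15598 and 169 ± 40.8 in Canton S (SD, n = 3), and DIP-zeta averaged 658 ± 222, 633 ± 63.4, 535 ± 304 and 605 ± 183 in the same order. The intervals of their log2 changes, -0.19 to 0.54 and -0.4 to 0.9, still hold rises of the size seen in dpr10. DIP-eta and DIP-iota were also above the control level on all arrays, at 69.3 to 125 and 60.2 to 130 in the nulls and 49.1 to 105 and 55.1 to 180 in the wild types. DIP-gamma, DIP-epsilon, DIP-theta and DIP-kappa were below it on 1 or more arrays, and DIP-kappa above it on only 1. Their log2 changes ran from -1.80 for DIP-theta to 0.23 for DIP-gamma, with intervals of -3.76 to 0.15 and -0.8 to 1.25.

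Among the Dpr genes, dpr19 rose most of those above the control level on all arrays. It read 677, 478 and 649 in A2663/2 and 742, 679 and 727 in 2/v, against 167, 192 and 292 in BL15598 and 81.7, 143 and 103 in Canton S. The nulls did not overlap the wild types, and the 3 BL15598 arrays lay above the 3 of Canton S.

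dpr19 rose 4.35-fold null against wild type (log2 2.12, SE 0.181, limma adjusted p = 6.44e-05, higher in 6 of 6 null arrays). The rise was 6.71-fold in 2/v against Canton S (limma adjusted p = 0.000134) and 2.82-fold in A2663/2 against BL15598 (limma adjusted p = 0.0073). The second of these calls was lost when the arrays of those 2 genotypes were fitted alone (adjusted p = 0.0533). Between the wild types, BL15598 was 1.98-fold above Canton S (limma adjusted p = 0.0418), which 13 of 19 alternatives did not call. The difference of the 2 null effects, -1.25 log2 units, did not pass (limma adjusted p = 0.103). The gene is a short one on 2L with a single probe set. Its nearest measured neighbours, CG5056, lft, gny and CG5096, were not called null against wild type.

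dpr15 encodes one of the Dprs that bind DIP-gamma. It read 271, 187 and 225 in A2663/2 and 174, 169 and 214 in 2/v, against 91.1, 84.6 and 93 in BL15598 and 70.7, 75.7 and 111 in Canton S. The null arrays were again all above the wild-type arrays. dpr15 rose 2.35-fold null against wild type (log2 1.23, SE 0.141, limma adjusted p = 0.000382, higher in 6 of 6 null arrays), 2.51-fold in A2663/2 against BL15598 and 2.2-fold in 2/v against Canton S (limma adjusted p = 0.00347 and 0.00572).

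dpr17, whose product also binds DIP-gamma, is the second measured gene to one side of dpr15 on 3R, after the uncalled CG4702. It read 7414, 7320 and 7362 in A2663/2 and 7445, 9115 and 9235 in 2/v, against 7869, 7788 and 6647 in BL15598 and 8980, 8817 and 7477 in Canton S. Its log2 change null against wild type was 0.01 (95% interval -0.19 to 0.21), which leaves out the change of dpr15. On the far side of dpr15 the nearest measured gene, the calphotin gene Cpn, rose by 1.17 log2 units (limma adjusted p = 0.00221), a value looked up after that of dpr15 was known. dpr16, which belongs to the same binding group, had a log2 change of -0.01 (95% interval -0.38 to 0.36), and the probe sets of dpr11 and DIP-gamma were below the control level on some arrays.

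**Figure D3:**
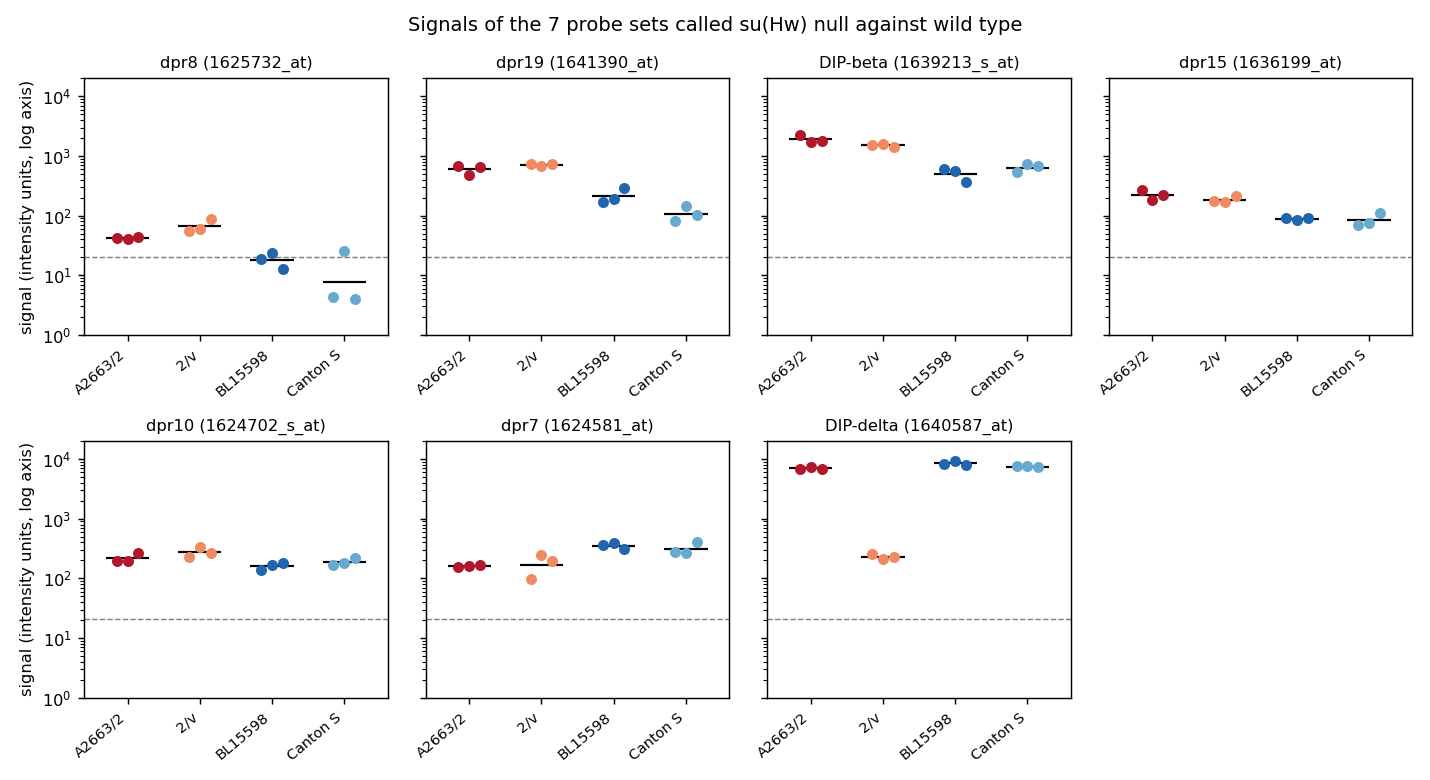
Signal on each array (log axis) of the 7 Dpr and DIP probe sets called null against wild type, ordered by log2 change from dpr8 to DIP-delta, with A2663/2 and 2/v left of BL15598 and Canton S, bars for geometric means of 3 and a dashed line for the control level of 20.4. The null arrays stand above the wild-type arrays in dpr8, dpr19, DIP-beta and dpr15 and below them in dpr7, overlap in dpr10, and in DIP-delta only 2/v is low.

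dpr8 encodes a partner of DIP-beta, and its probe set 1625732_at was dim. It read 42.1, 40.3 and 44.2 in A2663/2 and 55.6, 58.9 and 89.1 in 2/v, against 18.7, 24.1 and 13 in BL15598 and 4.36, 25.3 and 4.03 in Canton S. All 6 null arrays and 2 of the 6 wild-type arrays were above the control level.

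With signals under the control level set to it, dpr8 was at least 2.43-fold higher in null than in wild type (adjusted p = 0.000122 so treated, and 0.00893 for the signals as deposited, both by limma). The log2 change was 1.28 so treated and 2.17 as deposited. The treatment removes spread among dim replicates, so the smaller adjusted p does not measure that spread in full. In 2/v against Canton S dpr8 was at least 3.02-fold higher (limma adjusted p = 0.0101 as deposited, and 0.0862 from the arrays of those 2 genotypes alone). Without Canton S replicate 2, the one Canton S array above the control level, the deposited log2 change in that pair was 3.98, against 3.12 with it. In A2663/2 against BL15598 the call depended on the treatment of dim signals (adjusted p = 0.313 as deposited, 0.00812 with the control level as the lowest signal). In A2663/2 against Canton S the deposited signals were called (log2 2.47, limma adjusted p = 0.0346), and 9 of 19 alternatives ended the call, with log2 changes of 0.94 to 3.33 and adjusted p up to 0.145 over the 19. Those 9 were leaving out Canton S replicate 1 or 3, BL15598 replicate 1, any A2663/2 array or 2/v replicate 1 or 2, and the compared genotypes alone. The other 2 probe sets of dpr8 did not show the rise. Probe set 1623137_s_at read 36.4, 41.2 and 34.7 in A2663/2 and 7.69, 20.8 and 5.55 in 2/v, against 41.5, 59 and 30.5 in BL15598 and 3.44, 8.94 and 35.2 in Canton S. Probe set 1641086_at read 77.7, 15.6 and 80 in A2663/2 and 15.4, 35.3 and 177 in 2/v, against 13.6, 73.8 and 137 in BL15598 and 30, 49.9 and 16.2 in Canton S. The groups overlapped in both. The gene is long, and betaNACtes4, which overlaps it, was not called (log2 0.07). Of its 4 nearest measured neighbours, betaNACtes2 was called higher null against wild type (log2 0.51, limma adjusted p = 0.00468). It averaged 869 in A2663/2 and 823 in 2/v, against 824 in BL15598 and 424 in Canton S, so that Canton S alone stood apart. Both nulls were called against Canton S (limma adjusted p = 0.000875 in A2663/2 and 0.00123 in 2/v). Neither was called against BL15598 (log2 0.08 in A2663/2 and -0.01 in 2/v, limma adjusted p = 0.802 and 0.986). CG9400, CG9411 and CG12540 were not called null against wild type.

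dpr7, on the small chromosome 4, was the one Dpr called lower null against wild type in the signals as deposited. It read 153, 160 and 166 in A2663/2 and 95.9, 251 and 193 in 2/v, against 356, 388 and 310 in BL15598 and 273, 265 and 409 in Canton S. The highest null array stayed below the lowest wild-type array. dpr7 fell 2.01-fold null against wild type (log2 -1.01, SE 0.224, limma adjusted p = 0.0157, lower in 6 of 6 null arrays). The fall was 2.19-fold in A2663/2 against BL15598 and 1.85-fold in 2/v against Canton S, and neither pair passed by itself (limma adjusted p = 0.0694 and 0.122). Of its nearest measured neighbours yellow-h rose (log2 0.67, limma adjusted p = 0.00475), and CG1674 and RhoGAP102A were not called. NfI was called higher too (log2 1.73, limma adjusted p = 0.0215), but averaged below the control level in every genotype. With each array centred on its median, or after quantile normalization, dpr14 was called lower too (limma adjusted p = 0.049 and 0.0337, against 0.0898 as deposited).

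dpr10, whose product binds DIP-alpha, read 194, 198 and 263 in A2663/2 and 230, 337 and 267 in 2/v, against 137, 168 and 182 in BL15598 and 170, 183 and 217 in Canton S. The null and wild-type arrays overlapped, with both low A2663/2 arrays under the highest Canton S array. dpr10 rose 1.4-fold null against wild type (log2 0.48, SE 0.135, limma adjusted p = 0.0439), and 12 of 19 alternatives ended this call, with adjusted p up to 0.258. Leaving out Canton S replicate 1 or 2, BL15598 replicate 1 or 2, any A2663/2 array or 2/v replicate 2 or 3 ended it, as did median centring of the arrays, quantile normalization and the fit of 2 groups. CG8072 and CG6628, which overlap dpr10, were not called. In 2/v against BL15598, the one pair in which dpr10 was called, 7 of 19 alternatives ended the call (log2 0.77, limma adjusted p = 0.0322, and up to 0.131 among the alternatives), namely leaving out BL15598 replicate 1 or 2 or 2/v replicate 2 or 3, median centring, quantile normalization and the compared genotypes alone. Of its nearest measured neighbours Srg2, which overlaps dpr6, was dim, averaging 72.6 in A2663/2, 78.5 in 2/v, 18.7 in BL15598 and 29.5 in Canton S. Srg2 was called higher null against wild type (log2 1.91, limma adjusted p = 0.0173) and in 2/v against BL15598 (log2 2.42, limma adjusted p = 0.0346). It was called neither in A2663/2 against BL15598 nor in 2/v against Canton S (limma adjusted p = 0.0559 and 0.175). The others, ect, CG8065 and the brightest probe set of dpr6, at 37.2 to 137 in the nulls and 52.3 to 99.4 in the wild types, were not called.

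Among the dim probe sets, dpr9 and dpr6 passed only after the treatment of signals under the control level. dpr9 (1632889_at) ran from 40.5 to 95.3 in the nulls and from 4.18 to 44.2 in the wild types, and dpr6 (1628063_at) from 36.6 to 104 and from 1.67 to 46.6. Neither passed as deposited (limma adjusted p = 0.0765 and 0.151), and both passed with signals under the control level set to it (limma adjusted p = 0.0198 and 0.0222, at least 2.13-fold and 1.99-fold). Here too the treatment removes spread among dim replicates, which the latter adjusted p values do not measure in full. Of dpr14 (1633185_at), which ran from 5.51 to 32.1 in the nulls and from 13 to 86.5 in the wild types, and dpr13 (1638950_at), from 6.55 to 68.6 and from 13.1 to 176, both lower in the nulls by geometric mean, neither passed as deposited (limma adjusted p = 0.0898 and 0.127) or so treated (limma adjusted p = 0.112 and 0.0836). The other dpr9 probe set, 1626748_at, was above the control level throughout and had a log2 change of 0.17 (95% interval -0.23 to 0.56). The brightest dpr6 probe set, 1631559_s_at, was also above it throughout, with a log2 change of 0.02 (95% interval -0.53 to 0.57). The dim 1641016_at of dpr6 had a log2 change of -0.21 (limma adjusted p = 0.893). Over the 53 probe sets, the 6 null and 6 wild-type arrays did not overlap in 5, with DIP-beta, dpr8, dpr15 and dpr19 above and dpr7 below, a share of 9.43% against 6.41% of all probe sets (4.43% above and 1.98% below).

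The stocks themselves differed in 2 members, against 9.58% of all probe sets called between the wild types (5.43% higher and 4.16% lower in BL15598). Besides dpr19 this was dpr13, whose probe set 1638950_at read 36.4, 13.1 and 18.9 in BL15598, against 101, 158 and 176 in Canton S. It read 37.9, 6.55 and 7.21 in A2663/2 and 68.6, 40.4 and 23.9 in 2/v, so that only Canton S stood apart. With dim signals set to the control level, dpr13 was at least 5.69-fold lower in BL15598 than in Canton S and at least 5.61-fold lower in A2663/2 than in Canton S (limma adjusted p = 0.0352 and 0.0116 as deposited). The deposited log2 change of A2663/2 against Canton S was -3.54, and -4.36 without A2663/2 replicate 1, and the call was lost from the arrays of those 2 genotypes alone (adjusted p = 0.0624). Leaving out any Canton S array, BL15598 replicate 2 or 3, or 2/v replicate 2 ended the call between the wild types. The second dpr13 probe set, 1624352_at, was called in no comparison. In dpr3 the probe set 1641156_at read 271, 202 and 239 in A2663/2 and 133, 148 and 189 in 2/v, against 303, 210 and 145 in BL15598 and 76.4, 146 and 84.7 in Canton S. It rose 2.4-fold in A2663/2 against Canton S (limma adjusted p = 0.0346), a call that 10 of 19 alternatives ended. Another dpr3 probe set above the control level on all arrays, 1630152_at, was not called as deposited. In 2/v against Canton S it was 2.24-fold higher without overlap (limma adjusted p = 0.0548 as deposited, 0.048 with signals floored at the control level). Null against wild type its log2 change was 0.68, and that of the dim 1626635_at was -0.77 (limma adjusted p = 0.0926 and 0.309).

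**Figure D4:**
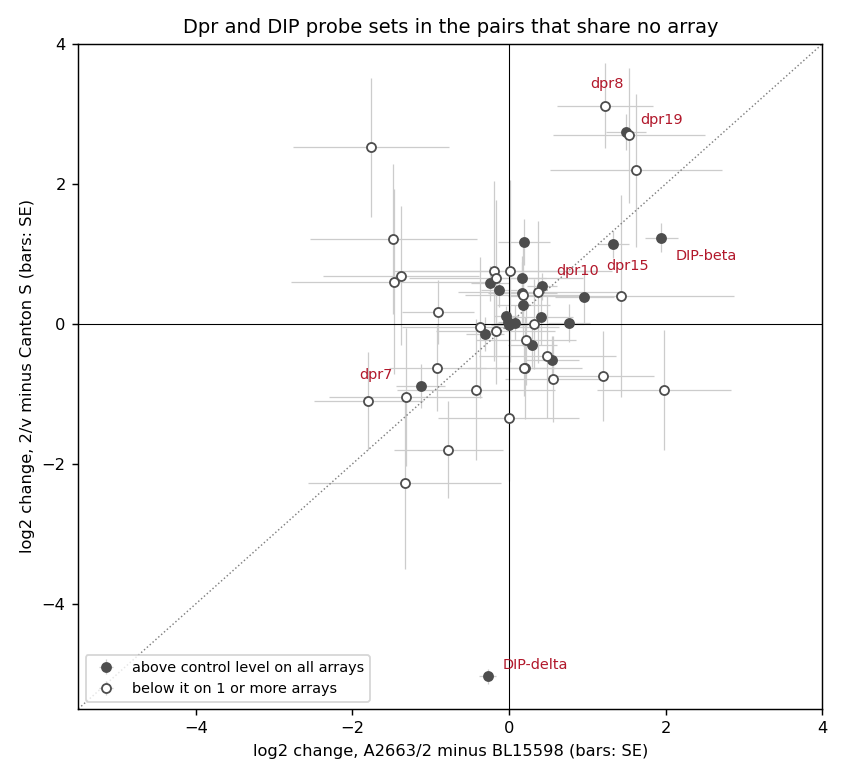
Log2 change of 2/v minus Canton S (vertical) against that of A2663/2 minus BL15598 (horizontal), with SEs, for the 53 Dpr and DIP probe sets; open circles were below the control level of 20.4 on 1 or more arrays and the dotted line marks equal changes. DIP-beta, dpr15, dpr19 and dpr8 lie above 0 on both axes, dpr7 below 0 on both, and DIP-delta far below the line.

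The 2 pairs of that plot share no array, although both nulls carry allele 2. The log2 change had the same sign in both pairs in 32 of the 53 probe sets, or 60.4%, beside 58.3% of all probe sets. dpr4 (1624295_at) and dpr17 were high in signal in every genotype, dpr4 at 3426 to 5656 in the nulls and 2196 to 6527 in the wild types, without a call in any comparison. dpr5 and dpr18 were likewise above the control level on all arrays and uncalled, at 170 to 290 and 91.8 to 139 in the nulls and 231 to 331 and 84.6 to 157 in the wild types. So were dpr20, at 27.2 to 71.7 in the nulls and 26.9 to 56.4 in the wild types, and the brightest probe set of dpr2, at 60.9 to 99.3 and 21.9 to 68.4. The salt-response gene dpr1 was below the control level on 2 or more arrays in each of its 3 probe sets, and dpr11 and dpr14 were below it on 4 and 7 arrays.

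Counted by the brightest probe set of each gene, 6 of the 30 Dpr and DIP genes were called null against wild type, 4 higher and 2 lower, which is 20%, against 15.7% of the 11982 genes (9.79% higher and 5.96% lower). In the Beat and Side families, another set of immunoglobulin proteins that pair across neurons, 5 of 21 measured genes rose and 1 fell, while 15 did not pass, with a median log2 change of 0.26 beside 0.02 over all genes. beat-Vb rose 3.14-fold, with means of 734 ± 36.3 in A2663/2 and 814 ± 36 in 2/v, against 185 ± 22.8 in BL15598 and 332 ± 54.2 in Canton S (SD, n = 3), and was called higher in all 4 pairs (limma adjusted p = 8.96e-06 null against wild type). side-V rose 2.98-fold (limma adjusted p = 0.00423). side-II fell (limma adjusted p = 0.000273), at 101 ± 8.39 in A2663/2 and 118 ± 49.9 in 2/v, against 77.9 ± 9.89 in BL15598 and 1476 ± 19.1 in Canton S, so that only Canton S stood apart.

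Of 22 other genes measured, mostly immunoglobulin surface genes but with cDIP among them, 3 rose and 2 fell. The remaining 17 did not pass, and the median log2 change was 0.14. klg, or klingon, a homophilic adhesion gene, rose 5.04-fold, at 307 ± 47.2 in A2663/2 and 734 ± 225 in 2/v, against 104 ± 12.7 in BL15598 and 83.3 ± 16.2 in Canton S (SD, n = 3, limma adjusted p = 2.05e-05), and was called in all 4 pairs. Lac, which encodes Lachesin of the septate junction, fell 1.24-fold (limma adjusted p = 0.0262). otk, a receptor-like gene, fell 1.78-fold (limma adjusted p = 0.0367), at 133 ± 37.3 in A2663/2 and 122 ± 31.4 in 2/v, against 408 ± 48 in BL15598 and 126 ± 43.4 in Canton S, so that only BL15598 stood apart.

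Of 8 neuron genes 1 was called null against wild type. Their signals added up to 1607 to 1743 in A2663/2 and 1419 to 2209 in 2/v, against 1032 to 1296 in BL15598 and 1090 to 1385 in Canton S, so that every null array was above every wild-type array. The synaptic vesicle gene nSyb was the one called (1.81-fold higher, limma adjusted p = 0.001), averaging 598 in A2663/2 and 669 in 2/v, against 300 in BL15598 and 414 in Canton S. The active zone gene brp, not called (log2 0.57, limma adjusted p = 0.182), averaged 726 in A2663/2 and 723 in 2/v, against 497 in BL15598 and 474 in Canton S, and with nSyb it made up most of the sum. ChAT had a log2 change of -0.67 (limma adjusted p = 0.0791) and elav, present in all neurons, one of -0.02, at 93.2 ± 17.1 in A2663/2 and 90.4 ± 37.9 in 2/v, against 101 ± 19.4 in BL15598 and 81.3 ± 9.25 in Canton S. None of the 8 was below the control level on all arrays, and 5 were above it on all. Of 5 glia genes limma called 0 null against wild type (2 at an unadjusted p under 0.05), with nrv2 closest (log2 -0.37, adjusted p = 0.0504), and their sums overlapped, at 5514 to 7142 in A2663/2 and 6577 to 7409 in 2/v, against 6128 to 8223 in BL15598 and 7374 to 8419 in Canton S. The part of nerve cells in the Dpr and DIP values was not tested.

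Of the 8 germline genes dj rose 1.42-fold and can 1.35-fold (limma adjusted p = 0.00376 and 0.0354) and 6 did not pass. For dj, Canton S alone stood apart, with means of 13803 in A2663/2 and 15387 in 2/v, against 12648 in BL15598 and 8371 in Canton S, and neither null was called against BL15598 (limma adjusted p = 0.609 in A2663/2 and 0.181 in 2/v). Of 3 muscle sheath genes Tm2 fell 1.42-fold (limma adjusted p = 0.0102). Of 6 accessory gland genes limma called 0, and 0 also at an unadjusted p under 0.05. Their log2 changes had a median of 0.71 and their sums ranged from 21489 to 39289 in A2663/2 and 16571 to 44569 in 2/v, against 9893 to 27722 in BL15598 and 8248 to 25772 in Canton S. The part of these tissues in the Dpr and DIP values was not tested either.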

How the data were processed

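The deposited values are probe set intensities on a linear scale. Per the submitters' processing notes, Partek 6.5 and RMA were used, but trimming 2% from each end of any array leaves a mean of 1500.03, which RMA does not give, so the authors' scaling of the deposited intensity values is not settled. Names come from the platform annotation, symbols being updated through RefSeq (Release 6 plus ISO1 MT), which also gave gene order. Of the 18769, 13647 had 1 symbol, 402 several and 4720 none. Log2 of the deposited signal, with no offset or filter, was modelled over all 12 arrays by 4 genotype means, using limma 3.58.1 (R 4.3.3), with 8 residual degrees of freedom before moderation, two-sided tests and Benjamini-Hochberg adjustment over all 18769 probe sets. The fit was tested on simulated data. Folds are ratios of geometric means. A bound written "at least" was computed with signals under the control level set to it. Replicates are called biological in the labels, and no arrays were identical. Precision is limited by the number of arrays. Deviations of same-numbered arrays were at most weakly related (r from -0.04 to 0.09 in 18 pairs, and from -0.1 to 0.06 in other-numbered pairs). Samples were not paired in the main fit. Low correlations cannot show that replicate numbers mark no shared batch.

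The members, gene lists and tests were chosen with earlier results of these data known. Alternatives were median centring, quantile normalization, a filter on dim probe sets, signals floored at the control level, a trended and robust prior, a replicate block, the compared genotypes alone, 2 groups of 6 arrays, the brightest probe set of each gene, and each array left out. Values on every array are given for members called null against wild type, A2663/2 against BL15598, in all 4 pairs or in the difference of the null effects. Of each other list, up to 3 genes with the smallest adjusted p are named. elav, the genes next to members, and dim members near a call were chosen after their values were seen.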

Additional observations from a re-analysis of the deposited data

Results flagged for a closer look

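The effect of the null genotype differed between the 2 pairs for DIP-delta (1640587_at), by 4.77 log2 units (A2663/2 minus BL15598, less 2/v minus Canton S, limma adjusted p = 1.76e-06), with -0.27 in A2663/2 against BL15598 and -5.04 in 2/v against Canton S. Among the genes set beside the family, it also differed for side-II, by 4.11 log2 units (limma adjusted p = 0.000247, with 0.38 and -3.73 in the 2 pairs), for klg, by -1.56 (limma adjusted p = 0.0292, with 1.55 and 3.11), and for dj, by -0.75 (limma adjusted p = 0.0433, with 0.13 and 0.88). For side-II and dj the nulls were not called apart (log2 0.14 and 0.16, limma adjusted p = 0.951 and 0.827). The wild types were, BL15598 against Canton S (log2 -4.25 and 0.59, limma adjusted p = 1.09e-05 and 0.0138). In these 2 genes the difference thus lies between the wild-type stocks. Genotype groups of 3 arrays are too small to test single arrays as outliers.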

How the results depend on the processing

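For single Dpr and DIP probe sets, the 30 called values were recomputed 569 times, of which 508 kept the call and direction and 61 lost the call, and the 4 uncalled values 76 times, of which 70 stayed uncalled and 6 gained a call. None of these changed sign. Null against wild type, the called probe sets of DIP-beta, dpr15, dpr19, dpr7 and dpr8 kept their calls under all 19 alternatives run on them. Counted by the brightest probe set of each gene, DIP-beta, dpr15, dpr19 and dpr7 were still called and dpr8 was not. The brightest probe set of dpr8 is another than the called one (log2 0.25, limma adjusted p = 0.885). Over all probe sets the median log2 change was 0.05, but -0.12 after centring arrays on their medians and -0.02 after quantile normalization. Higher calls made up 65.8%, 37.1% and 52.1% of calls in these 3 scalings. Among the 53 probe sets the calls were 5 higher and 2 lower as deposited and 4 higher and 3 lower with either of the others, where dpr14 was gained and dpr10 lost.

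Counts that moved by over 1.5 times were few. Between the wild types, 2 calls became 1 with median centring, quantile normalization, a replicate block, the compared genotypes alone or the brightest probe set of each gene, and 4 with a trended and robust prior. 2/v against Canton S gave 9 in place of 5 with signals floored at the control level, A2663/2 against Canton S 3 in place of 6 from the compared genotypes alone, and the difference of the null effects 2 in place of 1 with the trended prior. Leaving out each array in turn gave 0 to 3 calls between the wild types, with 0 without Canton S replicate 1, BL15598 replicate 2 or 2/v replicate 2. It gave 1 to 2 for the difference of the null effects, with 2 without Canton S replicate 2 or 3. It gave 6 to 8 null against wild type, 3 to 4 in all 4 pairs, 3 to 4 in A2663/2 against BL15598, 5 to 7 in 2/v against Canton S, 4 to 7 in A2663/2 against Canton S, 4 to 7 in 2/v against BL15598 and 1 to 1 between the nulls. With the replicate block, limma called 7 null against wild type and 3 in all 4 pairs, as without it. Of all probe sets, 2528 were called null against wild type and 1401 with 2 groups of 6 arrays. With the compared genotypes alone the counts were 655 in place of 1281 (A2663/2 against BL15598), 1134 in place of 1729 (A2663/2 against Canton S), 1077 in place of 1997 (2/v against BL15598), 715 in place of 1799 (wild types), 85 in place of 174 (nulls) and 195 in place of 384 (all 4 pairs). The trended prior gave 1152 in place of 763 for the difference of the null effects, and floored signals 264 in place of 174 between the nulls. The causes were not tested. Of the 53 probe sets, 31 were below the control level on 1 or more arrays.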
